A study of Fundulus heteroclitus with 6 samples.

Results

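Isogroups with more reads in Scorton Creek (SC) embryos than in New Bedford Harbor (NBH) embryos, with the solvent and with PCB-126 alike, are described here. An isogroup is a group of assembled contigs treated as the transcripts of 1 gene. The set holds 126 of the 22732 isogroups in the table. Its members were chosen by their measured values, namely at least 10 reads in SC and NBH together with each treatment and an SC to NBH ratio of at least 2 with each treatment. The ratio was taken on reads per library total after 0.5 reads were added to each count, and isogroups with 100 or more reads in all 4 libraries were dropped. The SC to NBH differences below are therefore a description of the choice, and no test is given for them.

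The libraries came from whole embryos of Atlantic killifish (Fundulus heteroclitus) at 10 days post-fertilization (dpf), spawned by wild fish from SC, a reference site, or from NBH, a site contaminated with polychlorinated biphenyls (PCBs). Embryos received DMSO or 50 nM PCB-126, for 1 h from 4 h after fertilization by the methods of the study, whereas the sample labels give 6 h before sampling. Each of the 4 conditions was sequenced as 1 library, made from the combined RNA of 3 pools of 20 embryos. The eggs of 8 females and the sperm of 5 males were used per site, so that a difference between populations and a difference between these parents cannot be told apart. A transcript in fewer cells and less of it per cell cannot be told apart either in RNA of whole embryos. The study reports that exposed SC embryos began to show delayed development and pericardial edema by the sampling age, whereas the other groups developed normally. It also names subtle differences in the rate of development between the populations as a possibility. Whether stage of development or toxicity contributes to the differences below was not tested. With 1 library per condition no difference has a replicate check, and every interval covers counting error only.

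The aryl hydrocarbon receptor (AHR) is a transcription factor that, when bound by dioxins or by PCBs of similar shape such as PCB-126, switches on genes of foreign-compound metabolism such as the cytochrome P450 CYP1A. NBH killifish are known for inherited resistance to such compounds, whereas SC fish are sensitive. A transcript that differs between the populations with DMSO and with PCB-126 alike differs without added PCB-126 as well as after exposure. Such a difference is thus of another kind than a response to PCB-126 found in 1 population.

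The files give isogroups by number, without gene names or sequences, so that roles of the members are not given and the embryo label was not checked against marker genes. The 4 libraries held 95410 (NBH with DMSO), 123644 (NBH with PCB-126), 124000 (SC with DMSO) and 132893 (SC with PCB-126) uniquely matching reads. Reads that did not match uniquely are not in these totals, and shares of a library below are shares of the uniquely matching reads. A count of 0 allows up to 3 counts, which is 3.14 reads per 100000 in the first library and 2.26 in the last. Reads were anchored at the 3' end, so that levels of different isogroups were set side by side as reads per 100000 without a correction for length.

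Of the 2415 isogroups eligible by reads, 518 (21.4%) had at least 2 times the level in SC with DMSO and 424 (17.6%) with PCB-126. Both conditions were met by 126, which is 5.22% of the eligible isogroups. The ratio with DMSO and the ratio with PCB-126 come from different libraries, but the libraries of a site share their parents. The agreement between the ratios is given as a count and was not tested. Of the 518 isogroups higher in SC with DMSO, 126 (24.3%) were also higher in SC with PCB-126, against 17.6% of the eligible isogroups. Another 100 (19.3%) were at least 2-fold higher in NBH with PCB-126, near the share among all eligible isogroups (447, 18.5%), and 292 (56.4%) were neither. As a share of the 424 isogroups higher in SC with PCB-126, the 126 are 29.7%. The same rule turned round gave 115 isogroups higher in NBH under both treatments, whereas 191 isogroups were at least 2-fold apart in opposite directions, 100 one way and 91 the other. Isogroups apart in opposite directions thus outnumbered those higher in SC under both treatments, and were fewer than those apart in 1 direction under both, SC and NBH together. No isogroup was lost to the condition on 100 reads in all libraries, since none of those passed both ratios.

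Each of these classes became smaller as the minimum ratio was raised, since a stricter cutoff can only remove isogroups. At a ratio of at least 4 with both treatments, 29 isogroups were higher in SC, 25 were higher in NBH and 28 were apart in opposite directions. At a ratio of at least 8 these numbers were 9, 7 and 4. Of the isogroups higher in SC with DMSO, 16.4% at 4-fold and 14.8% at 8-fold were also higher in SC with PCB-126. Among all eligible isogroups 5.59% and 1.95% were higher in SC with PCB-126. The shares higher in NBH with PCB-126 were 7.34% and 3.28%, against 5.38% and 1.70% of the eligible isogroups. The opposite directions were split 13 and 15 at 4-fold and 2 and 2 at 8-fold, the first number of each being isogroups higher in SC with DMSO and in NBH with PCB-126. These counts describe the ratios that the rule used, and most of the 126 members lie near the threshold in the plot of both ratios.

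**Figure D1:**
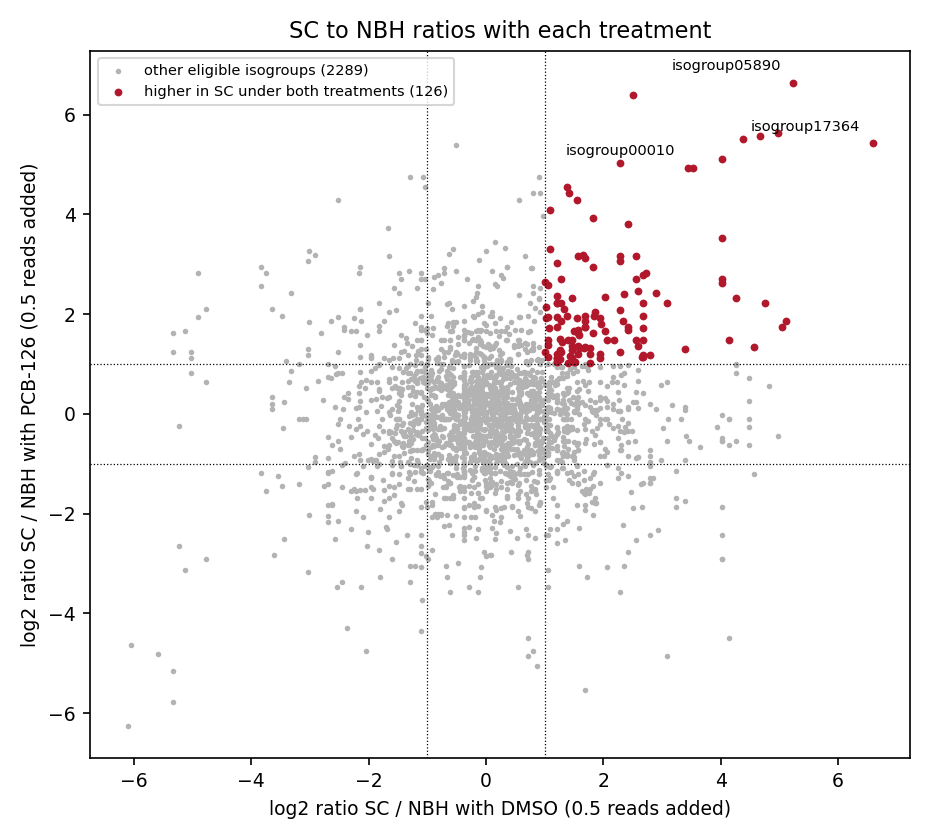
Log2 ratio of SC to NBH with DMSO (horizontal axis) and with PCB-126 (vertical axis) for 2415 eligible isogroups, each point 1 isogroup, after 0.5 reads were added to each count. The dotted lines mark a ratio of 2 in either direction, and the 126 members, in red, fill the upper right corner by the rule.

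**Figure D2:**
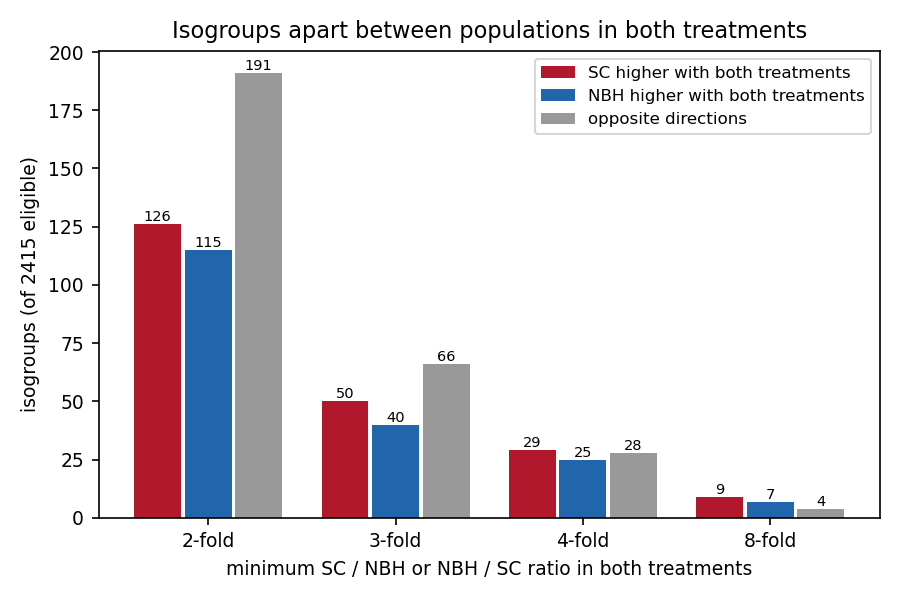
Number of eligible isogroups (vertical axis) that were apart between SC and NBH with both treatments, by the minimum ratio required (horizontal axis). Isogroups apart in opposite directions were 191 at 2-fold, against 126 higher in SC and 115 higher in NBH. At 8-fold they were 4, against 9 and 7.

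Most members were transcripts of low level. Their reads over the 4 libraries ranged from 21 to 2106 with a median of 39, against a median of 49 over the eligible isogroups, and 9 members had 100 or more reads. In SC with DMSO the members had 8 to 781 reads with a median of 14.5, and in SC with PCB-126 they had 8 to 1233 with a median of 17. In NBH the range was 0 to 55 with a median of 3 with DMSO, and 0 to 59 with a median of 4 with PCB-126. The median level in NBH with DMSO, 3.14 reads per 100000, was the level of 3 counts in that library, so that a typical member was read at the edge of detection in NBH.

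Of the 126 members, 105 had reads in both NBH libraries, 16 had reads in 1 of them and 5 had none in either. In each of the 126 both SC levels lay above both NBH levels, which was so for 20% of the eligible isogroups. The rule does not ask for this comparison across treatments, but it was chosen on the same counts and nothing is read from it. Members together took 2.50% of the reads in SC with DMSO (exact 95% interval 2.42 to 2.59%) and 3.06% in SC with PCB-126 (2.97 to 3.16%). In NBH they took 0.554% with DMSO and 0.563% with PCB-126. A single member, isogroup00010, held a large part of the SC reads, and without it the shares were 1.87% and 2.13% in SC and 0.497% and 0.533% in NBH.

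**Figure D3:**
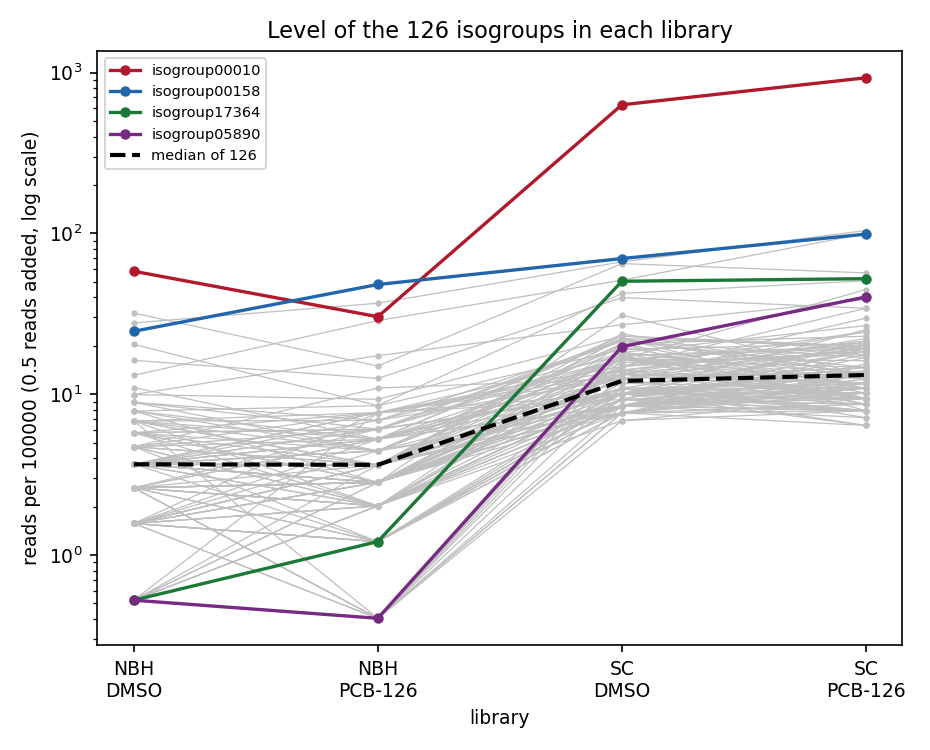
Level of the 126 members in each library, as reads per 100000 on a log scale after 0.5 reads were added, with 1 line per isogroup, 4 isogroups in colour and the median as a dashed line. Isogroup00010 lies far above the other members in both SC libraries.

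Isogroup00010 was the member with most reads. It had 781 reads in SC with DMSO, 1233 in SC with PCB-126, 55 in NBH with DMSO and 37 in NBH with PCB-126. It was the isogroup of rank 9 by reads in SC with DMSO and of rank 2 in SC with PCB-126, whereas its rank was 238 and 453 in the NBH libraries with DMSO and with PCB-126, so that one of the most abundant transcripts in the SC libraries stood much further down the list in NBH. The SC level was 10.9-fold higher with DMSO (exact 95% interval 8.31 to 14.6) and 31.0-fold higher with PCB-126 (22.4 to 44.2). The other members had at most 86 reads in SC with DMSO and 138 in SC with PCB-126.

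The next members by reads had smaller ratios that are better counted than most. The SC counts of isogroup00158 were 86 with DMSO and 131 with PCB-126 (the order of all pairs of values below), against 23 and 59 in NBH, a ratio of 2.88 with DMSO (1.80 to 4.78) and 2.07 with PCB-126 (1.51 to 2.86). Isogroup00563, named after its values were seen, had SC counts of 82 and 138 against NBH counts of 26 and 45, with ratios of 2.43 (1.54 to 3.93) and 2.85 (2.02 to 4.09). In both of these isogroups the PCB-126 library had the higher level in each population, and each SC level lay above both NBH levels. Isogroup08613 was alike in this, with 63 and 132 reads in SC, 12 and 35 in NBH, and ratios of 4.04 (2.16 to 8.23) and 3.51 (2.40 to 5.25).

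At the other end stood isogroups with reads in SC and few or none in NBH. Only uniquely matching reads were counted, and the reads of near-identical copies could be split between isogroups. Whether the genes of these isogroups were read in NBH under other isogroup numbers was not tested. Isogroup17364, picked out after its values were seen, had 62 and 69 reads in SC against 0 and 1 in NBH. With DMSO its SC level was 15.9 times the floor of 3 counts in the NBH library (exact lower limit of the ratio 12.6), and with PCB-126 the ratio was 64.2 (11.1 to 2572). With so few NBH reads the ratio with PCB-126 is loosely bounded, and its interval includes that of isogroup00010. Its SC level was about the same with both treatments, with a PCB-126 to DMSO ratio of 1.04 (0.726 to 1.49).

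The 5 members without reads in either NBH library were isogroup05890, isogroup09801, isogroup09192, isogroup12435 and isogroup12229. Isogroup05890 had 24 and 53 reads in SC, 6.16 times the NBH floor of 3 counts with DMSO and 16.4 times with PCB-126 (exact lower limits of the ratio 4.63 and 12.9). Isogroup09801 had 20 and 26 reads, 5.13 and 8.06 times this floor (exact lower limits 3.80 and 6.10). The remaining members of the 5 had 10 to 16 reads in SC with DMSO and 18 to 25 with PCB-126. An NBH level below the floor is not shown to be absent, and in all 5 the SC count with PCB-126 was the larger of the SC counts.

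The intervals show how much counting error is left in the ratios by which the members were chosen. The exact 95% interval of the ratio lay above 1 with both treatments in 52 of the 126 members, with DMSO alone in 19, with PCB-126 alone in 35 and with neither in 20. Among all eligible isogroups, 2.9% had both intervals above 1. Of the 37 members with at least 50 reads, 25 had both intervals above 1 and 1 had neither, and of the 89 members with fewer reads these numbers were 27 and 19.

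In 9 members both lower limits were at least 2. They were isogroup00010, isogroup08613, isogroup17364, isogroup05890, isogroup06494, isogroup09801, isogroup09192, isogroup11881 and isogroup12435, named after their values were seen. Isogroup06494 had SC counts of 27 and 26 against NBH counts of 3 and 4, with ratios of 6.92 (2.13 to 35.7) and 6.05 (2.10 to 23.8). Isogroup11881 had SC counts of 22 and 16 against NBH counts of 1 and 0. As the intervals are of the ratios that chose the members, they describe the counts and are no test of a member.

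The threshold itself falls within a dense part of the distribution. The smaller of a member's ratios was under 3 in 76 members, from 3 to under 4 in 21, from 4 to under 8 in 20 and at least 8 in 9. Just inside the rule, isogroup05015 had ratios of 2.0 with DMSO and 6.25 with PCB-126 on the scale of the rule, and isogroup02325 had 2.02 and 2.36. Just outside it, isogroup00266 had 2.08 and 1.99, with SC counts of 90 and 37 against NBH counts of 33 and 17, and isogroup04223 had 19.2 and 1.99, with SC counts of 12 and 7 against NBH counts of 0 and 3. Isogroup02325 had SC counts of 27 and 16 against NBH counts of 10 and 6, and both of its intervals included 1 (0.975 to 4.81 with DMSO and 0.922 to 7.74 with PCB-126). A small shift in any of these counts would move an isogroup across the rule.

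**Figure D4:**
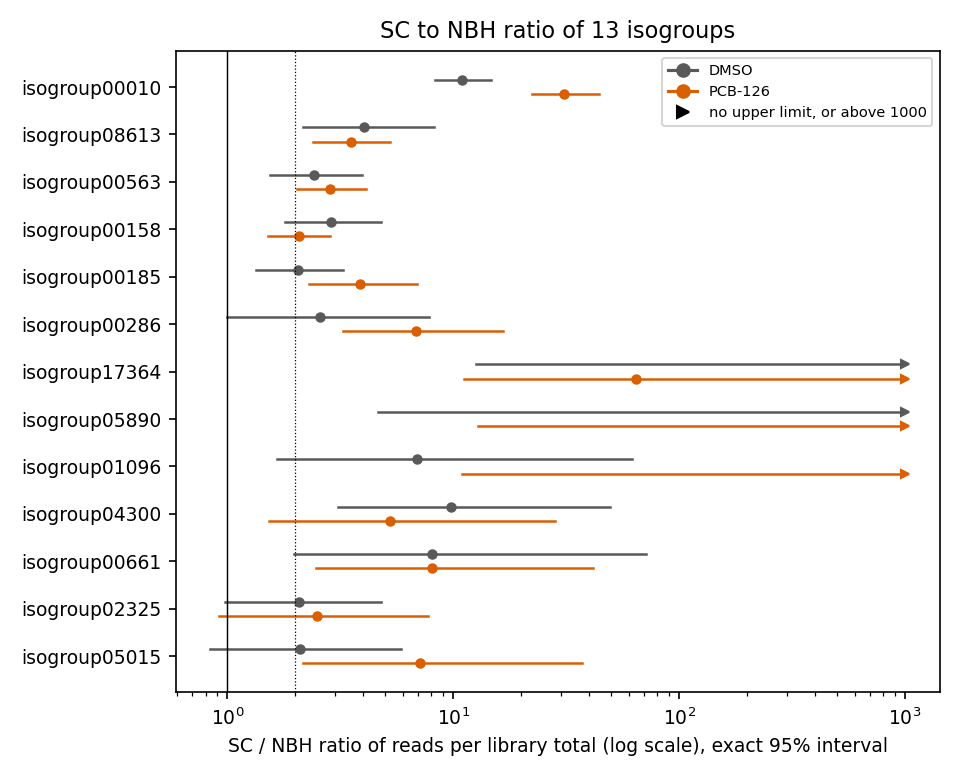
SC to NBH ratio of reads per library total with its exact 95% interval, on a log scale, for 13 members with DMSO (grey) and with PCB-126 (orange). An arrow marks an interval that has no upper limit or runs on past the arrow, the solid line is a ratio of 1 and the dotted line a ratio of 2. Both intervals of isogroup00010 lie at 8.31 or above, and those of isogroup02325 include 1.

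The size of the population difference was set side by side for the treatments without a test. The ratio was larger with PCB-126 in 66 members and larger with DMSO in 60, and the ratios were within a factor of 2 of each other in 82. On the scale of the rule, with 0.5 reads added, isogroup00661 had the second largest smaller ratio, 6.62, after isogroup00010, among members read in both NBH libraries. Its SC counts were 21 and 26 against 2 and 3 in NBH, with ratios without added reads of 8.08 (1.97 to 71.1) and 8.06 (2.47 to 41.6).

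The members with the most unlike ratios each had an NBH count of 0 with 1 of the treatments. Isogroup00506 had 21 and 12 reads in SC against 0 and 3 in NBH, and isogroup07303 had 22 and 17 against 0 and 4, both with the larger ratio with DMSO. Isogroup01096 had 18 and 45 reads in SC against 2 and 0 in NBH, and isogroup07044 had 8 and 12 against 2 and 0, both with the larger ratio with PCB-126. In all 4 the NBH counts were at most 4 reads, so that a few reads set the ratio.

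The response to PCB-126 within each population is a different contrast from that of the rule, though it rests on the same counts. It was tested for each isogroup with at least 10 reads in the 2 libraries of a population by Fisher's exact test (two-sided), adjusted over all isogroups tested (Benjamini-Hochberg). A call required an adjusted p under 0.05 together with a 2-fold or larger ratio in either direction. The test compares the reads of 2 libraries and not the conditions. All 126 members were tested in SC, where 5 were called higher with PCB-126 and 3 lower, that is 3.97% and 2.38%, against 12% called higher and 10.9% called lower among the 4135 isogroups tested and 6.51% and 7.95% among the 2303 of them that were eligible for the set. In NBH 37 members had enough reads, of which 1 was called higher and 1 lower, against 11.8% and 11.2% of 3691 isogroups, and 7.11% and 7.94% of the 2179 eligible ones. The rule keeps out isogroups that are low in 1 of the SC libraries, which can lower the share called in SC. Members also had fewer reads than the eligible isogroups (median 39 against 49). How much of the lower share either makes up was not tested. Nothing about the response of the members is read from these shares.

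The 5 members called higher in SC were isogroup00286, isogroup01096, isogroup05890, isogroup10400 and isogroup01488. Isogroup00286 went from 20 to 59 reads, a ratio of 2.75 (1.63 to 4.83; Fisher's exact test, adjusted p = 0.000700), with 6 and 8 reads in NBH. Isogroup01096 went from 18 to 45 reads, a ratio of 2.33 (1.32 to 4.28; Fisher's exact test, adjusted p = 0.0134). In SC the other 3 had ratios of 2.06 to 2.57, and of the 5 only isogroup01488 had more than 8 reads in an NBH library. Isogroup01488 had SC counts of 12 and 33 against NBH counts of 1 and 9, a shift the same way in both populations, which passed the test in SC (adjusted p = 0.0224, Fisher's exact test) and not in NBH (adjusted p = 0.133, same exact test). Whether the responses of the populations differ was not tested, since that difference is the difference of the ratios that the rule used.

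The 3 members called lower in SC were isogroup04300, isogroup06073 and isogroup03583. Isogroup04300 went from 38 to 17 reads, a ratio of 0.417 (0.221 to 0.758; Fisher's exact test, adjusted p = 0.0154), with 3 and 3 reads in NBH. Isogroup06073 went from 25 to 10 reads, a ratio of 0.373 (0.160 to 0.805; Fisher's exact test, adjusted p = 0.0316), with 5 and 2 reads in NBH. Isogroup03583 went from 27 to 12 reads, and its call was lost with DESeq2 size factors. After these falls the SC counts of the 3 were still above those of NBH, as the rule requires. When all libraries were thinned to 95410 reads, the 3 calls were lost, and so were those of isogroup01096, isogroup10400 and isogroup01488. The exact test of edgeR, which allows scatter between libraries, kept none of the 8 calls in SC (with an estimated dispersion or an assumed coefficient of variation of 0.4). The estimated dispersion came from a fit over all 4 libraries, in which differences in response between the populations count as scatter. Scatter within a condition was not measured, so that this loss cannot decide whether the 8 calls are right. With isogroups of at least 1 read tested isogroup00286 alone remained.

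In 4 further members, all of them abundant, the SC level with PCB-126 passed the adjusted p at a ratio under 2. They were isogroup00010 (ratio 1.47, 1.35 to 1.61), isogroup08613 (1.96, 1.44 to 2.68), isogroup00563 (1.57, 1.19 to 2.09) and isogroup00158 (1.42, 1.07 to 1.89). In NBH, isogroup08613 was the 1 member called higher, from 12 to 35 reads (ratio 2.25, 1.14 to 4.76; Fisher's exact test, adjusted p = 0.0496). The level of isogroup08613 was thus higher with PCB-126 in the libraries of both populations at an adjusted p under 0.05, although in SC it missed the 2-fold minimum. In SC it was called higher with DESeq2 size factors and after thinning. Isogroup00158 also passed the adjusted p in NBH, from 23 to 59 reads (ratio 1.98, 1.2 to 3.36; Fisher's exact test, adjusted p = 0.0255), as it did in SC (adjusted p = 0.0478, same exact test), under 2-fold in each. Isogroup00010 passed it in NBH in the other direction, with a ratio of 0.519 (0.333 to 0.802). Isogroup00185 was the 1 member called lower in NBH, from 30 to 18 reads (ratio 0.463, 0.243 to 0.858; Fisher's exact test, adjusted p = 0.0379), and had 80 and 75 reads in SC. The call of isogroup00185 did not hold under TMM or DESeq2 scaling, and the NBH call of isogroup08613 was lost when all libraries were thinned to 95410 reads. Both NBH calls were lost in both exact tests of edgeR, and when isogroups with at least 1 read were tested.

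The PCB-126 to DMSO ratio in SC was within a factor of 2 for 112 of the 126 (88.9%), against 69.9% of the eligible isogroups tested in SC. The rule keeps out isogroups that are low in 1 of the SC libraries, which tends to bring these levels together. How much of the share this makes up was not tested. The set higher in NBH had 83.5% within a factor of 2 in NBH. The median log2 ratio of PCB-126 to DMSO was 0.15 in SC for the members and 0.03 for all isogroups tested, and in NBH it was 0.07 for both. Of the 37 members tested in both populations, 29 (78.4%) had the PCB-126 to DMSO ratio on the same side of 1 in SC and NBH, against 45.1% of 2067 eligible isogroups. The rule sets a minimum on the SC to NBH ratio with each treatment, which can bear on this share too. How much it does was not tested. The set higher in NBH had 72.5%, so that nothing particular to the members is read from the share.

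**Figure D5:**
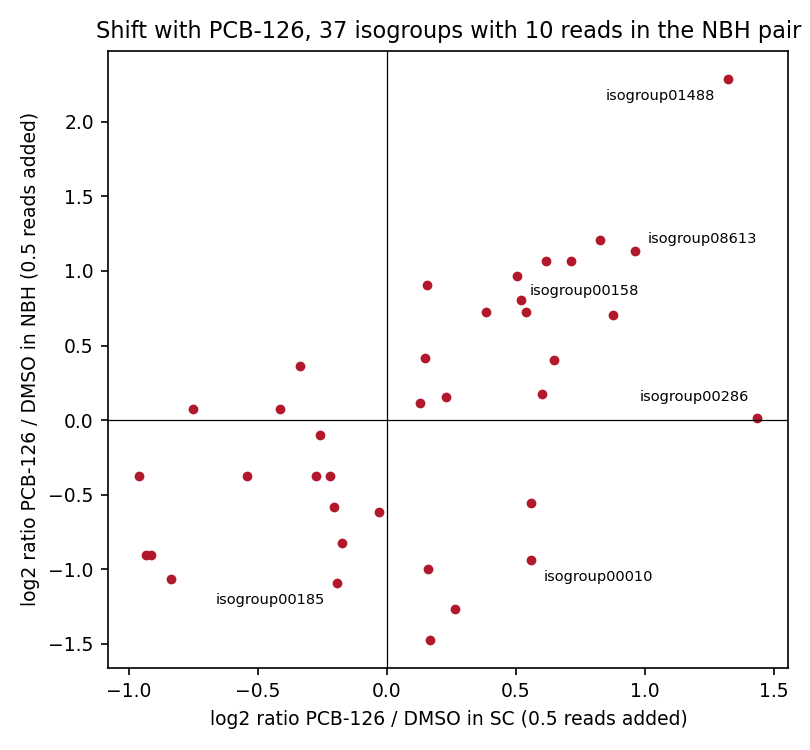
Log2 ratio of PCB-126 to DMSO in SC (horizontal axis) and in NBH (vertical axis), after 0.5 reads were added, for the 37 members with at least 10 reads in the NBH libraries, each point 1 isogroup. In 29 of them both ratios lie on the same side of 0 on the log2 scale, and isogroup00010 is in the lower right with a higher level in SC and a lower one in NBH.

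A fit over all 4 libraries, with population and treatment as terms and the populations standing as the 2 libraries of a treatment, allows scatter between libraries beyond counting error. The quasi-likelihood test of edgeR called 0 of the 126 members for treatment, with 2 at an unadjusted p under 0.05, both higher with PCB-126, and a smallest adjusted p of 1.00 after rounding. Over all isogroups it called 0.0839% of 7149, and 3.85% had an unadjusted p under 0.05. The DESeq2 Wald test called 0 members as well, with 0 at an unadjusted p under 0.05. The fit has 1 residual degree of freedom per isogroup, which is the difference in response to PCB-126 between the populations. Its estimated coefficient of variation, 57.6%, thus holds such differences as well as scatter between libraries. The count of 0 therefore does not show that the members did not respond.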

How the data were processed

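RNA was measured in 4 libraries of 10-dpf embryos, 1 for each condition. Counts of uniquely matching reads per isogroup, in whole numbers and without normalization, were deposited by the authors. For these libraries, the assembler and the program that matched reads were not given in the sources used here (Newbler is named in the methods of the study as the assembler of the libraries of untreated embryos). A total of 7 blank cells, at the ends of columns whose last value is above 0, were read as 0. The 2 libraries of untreated embryos were not analysed here.

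Column sums, from 95410 to 132893 reads, served as library sizes. Intervals of ratios and shares are exact (Clopper-Pearson, 95%), and ratios in the text other than those of the rule had no reads added. Members and the choice of isogroups to name were fixed with earlier results of these data known. By the rule, the isogroups named are at most 2 each of most reads, of most SC reads without NBH reads, of largest smaller ratio, just inside and outside the thresholds, of smallest p among calls in each direction, and of most unlike ratios, and others were named after their values were seen. Isogroup numbers carry no gene names, and none was assigned.

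Fisher's exact test and the quasi-likelihood test were checked on simulated data. The simulation held counting error only for the former, and for the latter less scatter than was estimated here. The check thus does not show how the tests behave at the scatter of these libraries. Alternatives changed library sizes (TMM, DESeq2 size factors, without the 10 isogroups of most reads), reads added, minimum reads, ratio, depth and test. Software was edgeR 4.0.16 and DESeq2 1.42.0 in R 4.3.3, and scipy 1.17.1, matplotlib 3.10.9, pandas 2.3.3 and numpy 2.4.6 in Python 3.11.15.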

Additional observations from a re-analysis of the deposited data

Results flagged for a closer look

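Isogroup00010 had PCB-126 to DMSO ratios whose exact 95% intervals lay on opposite sides of 1 in the populations. The ratio was 1.47 in SC (1.35 to 1.61; Fisher's exact test, adjusted p = 2.6e-15) and 0.519 in NBH (0.333 to 0.802; Fisher's exact test, adjusted p = 0.0135), both within a factor of 2 and so not called. The difference between these ratios was not tested, since it is the difference of the SC to NBH ratios by which the isogroup was chosen, and each ratio compares 2 single libraries.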

How the results depend on the processing

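The number of members, 126, was 115 to 142 with other library sizes or with 1 or 0.1 reads added, and 84 after thinning, of which 68 were among the 126. It was 353, 42 and 15 with at least 5, 20 and 30 reads per treatment, and 248, 50 and 29 with ratios of 1.5, 3 and 4. With at least 30 reads, 14 isogroups were higher in NBH and 24 apart in opposite directions (chosen after seeing the data, as were the next settings). Isogroups higher in NBH, 115, were 100 to 120 with other library sizes. After thinning they were 93, more than the 84 higher in SC, so that the order of the 2 sets depended on depth. Those apart in opposite directions, 191, were 188 to 194 with other library sizes and 146 after thinning. Members called with PCB-126 in SC, 5 higher and 3 lower, were 1 and 0 with at least 1 read in the pair, 9 and 3 without a minimum ratio, 0 and 0 with a ratio of 4, and 3 and 1 after thinning. With DESeq2 size factors the SC calls were 7 higher and 2 lower. Of the SC calls after thinning, 2 higher and 0 lower were among the 5 and 3. In NBH, 1 higher and 1 lower became 1 and 0 with TMM and with DESeq2 size factors, 0 and 0 with at least 1 read, 2 and 2 without a minimum ratio, 0 and 0 with a ratio of 4, and 0 and 2 after thinning. Of the 2 NBH members called lower after thinning, 1 was also called lower without it. The exact test of edgeR, with the estimated dispersion or an assumed coefficient of variation of 0.4, called 0 members in SC and 0 in NBH. Without the 10 isogroups of most reads in the library totals, the members' share was 0.606% and 0.614% in NBH and 2.72% and 3.30% in SC (DMSO, then PCB-126), and without isogroup00010 (chosen after seeing the data) it was 0.497% and 0.533% in NBH and 1.87% and 2.13% in SC. The ratios of the isogroups named by the rule kept their direction and stayed within their intervals in all 180 recalculations. The other library sizes moved the SC to NBH ratios by at most 0.066 on the log2 scale, far less than the width of the intervals. Where an NBH count was 0 the interval has no upper limit. Staying within the intervals thus says little. With DMSO, isogroup05015 fell below the cutoff of 2, to 1.99 without the 10 isogroups of most reads and 1.92 with 1 read added. Isogroup02325 fell to 1.96 with 1 read added. With PCB-126, isogroup00266 rose to 2.09 with DESeq2 size factors. The PCB-126 ratio of isogroup05890 was 50.2 with 1 read added and 494 with 0.1 reads added. The ratio of isogroup01096 with PCB-126 was 42.8 and 420 with these settings. No paired analysis was possible because each condition has 1 library, other than the fit over all 4 libraries with population as a term, which called 0 members, and no library could be left out. Depth limits single members, since 89 of 126 had under 50 reads.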

Other observations

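In 2 places members had neighbouring isogroup numbers, noticed after the values were seen. Isogroup15303 had SC counts of 12 and 13 (DMSO, then PCB-126) against NBH counts of 3 and 4, and isogroup15304 had SC counts of 10 and 17 against 3 and 3. Isogroup06073 had SC counts of 25 and 10 against NBH counts of 5 and 2, whereas its neighbour isogroup06074 had SC counts of 10 and 22 against 1 and 1. The sources used here do not say whether neighbouring numbers mark related sequences, and the reads of near-identical copies could be split between isogroups.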
